A study of Spodoptera frugiperda with 12 samples.

Results

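The m6A peaks on the mitochondrial genes *ATP8*, *ATP6* and *CYTB* were examined in embryos of *Spodoptera frugiperda*, the fall armyworm, a moth whose larvae are crop pests. N6-methyladenosine (m6A) is a methyl mark on adenosines inside RNA, and a peak is a stretch of RNA called as enriched after capture of short fragments with an antibody against m6A. The embryos were collected 24 h or 2 h after the eggs were laid, and each time has 3 captured samples, each with its own deposited peak list. Many embryos were collected per time, and the labels do not state whether the 3 samples of one time are separate collections. P-values here therefore reflect the spread between lists, which may be technical. Peaks were taken from the 6 lists when they lay on the plus strand of the mitochondrial sequence NC_027836.1 and overlapped one of the 3 genes by the RefSeq gene positions. This gave 31 peaks, of 180 mitochondrial peaks and 331440 peaks in all. Read depth is not recorded in the lists and is unknown for each peak, and the 6 uncaptured input samples were not analysed here.

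Mitochondria carry their own small genome, whose coding genes all serve oxidative phosphorylation. *ATP6* encodes subunit a of the ATP synthase, the membrane subunit through which protons flow, and *ATP8* encodes a short accessory membrane subunit of the same enzyme. *CYTB* encodes cytochrome b, the only mitochondrially encoded subunit of complex III, which passes electrons from ubiquinol to cytochrome c. In insects long transcripts of the mitochondrial genome are cut into messenger RNAs mostly at the tRNA genes that lie between coding genes. *ATP8* and *ATP6* overlap and have no tRNA gene between them, and in animals they are commonly carried on a shared messenger RNA.

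Peaks followed the annotated coding stretches exactly. Coding genes that share at least 1 base were joined, which made 11 stretches of the 13 coding genes, and *ATP8*, *ATP6* and *COX3*, a cytochrome c oxidase subunit gene, formed one stretch of 1621 bases. The starts of all 180 mitochondrial peaks lay on 25-base steps counted from the left end of their stretch, and all 180 ended on such a step or at the end of the stretch. None reached past its stretch. The ends of peaks inside *ATP6* fell on steps counted from the start of *ATP8*. These steps never coincide with 25-base steps counted from the start of *ATP6* itself, so 0 of the ends could fall on those. Positions of peak edges are therefore known only to 25 bases, and *ATP8* and *ATP6* were called as parts of a single stretch. The kit is not described as marking strand, and the minus strand held no peak over the 3 genes in any list.

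A single peak ran through *ATP8* and across its junction with *ATP6* in all 6 lists. It started at base 3904 in every list, 25 bases inside *ATP8*, and those first 25 bases of the gene were under no peak in any list. The peak ended at base 4553 in 5 lists, where it spanned 650 bases, and at base 4528 in the first 24 h list, where it spanned 625. It held the last 137 of the 162 bases of *ATP8*, the 7 bases that both genes share, and the first 520 of the 678 bases of *ATP6* (495 in the first 24 h list). The share of *ATP8* under peaks was thus 84.6% in each of the 3 lists of 24 h and each of the 3 lists of 2 h.

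A second peak joined the end of *ATP6* to *COX3*. It started at base 4629 in all 6 lists and ended at base 5003 in 5 of them, and in the second 24 h list it ended at base 4953. It held the last 83 bases of *ATP6* and, in 5 lists, 293 bases of *COX3*. Between the peaks lay 75 bases that no list called, from base 4554 to base 4628, which are bases 521 to 595 of *ATP6*. This gap was shorter than the fragments of about 100 nucleotides that the protocol describes. *ATP6* was covered to 85.3%, 88.9% and 88.9% in the lists of 24 h and to 88.9% in all 3 lists of 2 h. The difference in mean, -1.23 percentage points (24 h minus 2 h), was 1 step in the first 24 h list, and without that list it was 0 (exact two-sided permutation p = 1 with all lists).

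Upstream and downstream of this pair the scores differed. The score, which the authors gave each peak on an unstated scale, was read only within a list. Ranges of raw scores given per time describe the lists and do not compare the times. The highest finite scores were 1014.7 to 1015.5 in the 6 lists, and peaks listed with an infinite score rank above them and cannot be ordered among themselves. Both peaks over *ATP8* and *ATP6* had an infinite score in all 6 lists. The peak over *COX2*, the coding gene before *ATP8*, was also infinite in all 6 lists. The 137 bases between *COX2* and *ATP8* hold tRNA genes and no peak, and lie outside the stretches to which all peaks kept. Further along *COX3*, the 13 peaks that started past *ATP6* had finite scores, from 14.3 to 33.5 in the 24 h lists and from 26.1 to 33.8 in the 2 h lists, which placed them between the 32.7th and the 63.8th percentile of their lists. Within this stretch the infinite scores thus ended, in every list, with the peak that crosses from *ATP6* into *COX3*.

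*CYTB* carried its peaks in separate blocks. The first block ran from base 10542, the first base of the gene, to base 11041 in all 6 lists and spanned 500 bases, 43.6% of the gene. A gap of 175 bases free of peaks in every list followed, from base 11042 to base 11216, longer than the described fragments. A short middle peak ended at base 11291 in all 6 lists and varied in its start. A gap of 75 bases then reached to base 11366, and another block of 250 bases ran from base 11367 to base 11616 in all 6 lists. An extra peak of 25 bases, from base 11642 to base 11666, was present in the third 2 h list alone. The 25 bases before it, from base 11617, and the last 23 bases of the gene, from base 11667 to base 11689, were under no peak in any list. In the other lists nothing was called past base 11616.

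The lists differed most at the middle peak of *CYTB*, which held 2 of the 4 steps of the 3 genes that some lists called and others did not. It spanned 25, 50 and 50 bases in the 24 h lists, against 50, 75 and 75 bases in the 2 h lists. The ranges met at 50 bases, so the times were not separated. Its score was infinite in all 3 lists of 24 h, against 608.8, infinite and 705.8 in the 2 h lists. The finite values were still among the highest of their lists, at the 97.2nd and 98.5th percentile. The extra 25-base peak of the third 2 h list had a score of 273.6, at the 95.3rd percentile. That list was the shortest of the 6, with 51157 peaks, and had 0.930% of its peaks at an infinite score, against 1.16% to 1.50% in the other lists. The first 2 h list, whose middle peak was also finite, had the highest share of the 6, at 1.50%. A link between these shares and the finite scores was not tested.

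The border between *CYTB* and *ND6*, a complex I gene that lies just before it, was crossed by no peak. The 2 genes are separate stretches, and none of the 180 mitochondrial peaks reached past its stretch. The lack of a crossing peak was therefore shared by all borders between stretches. It cannot be read as a feature of the RNA at this border. In all 6 lists a peak ended at base 10532 in *ND6* and the next began at base 10542, so that only 9 bases stood between them, 3 of them between the genes. The scores on both sides were unlike. The *ND6* peaks scored 36.1 to 79.2 in the 24 h lists and 29.7 to 37.3 in the 2 h lists, between the 57.0th and the 83.4th percentile, while the first *CYTB* block was infinite in all 6 lists. These raw ranges overlap and are no comparison of the times, since scores were read only within a list. *CYTB* was one of 3 plus-strand stretches, of 7, whose first 25 bases were called in every list, and the *ATP8*-*ATP6*-*COX3* stretch was the only one of the 7 whose first 25 bases were called in none.

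**Figure D1:**
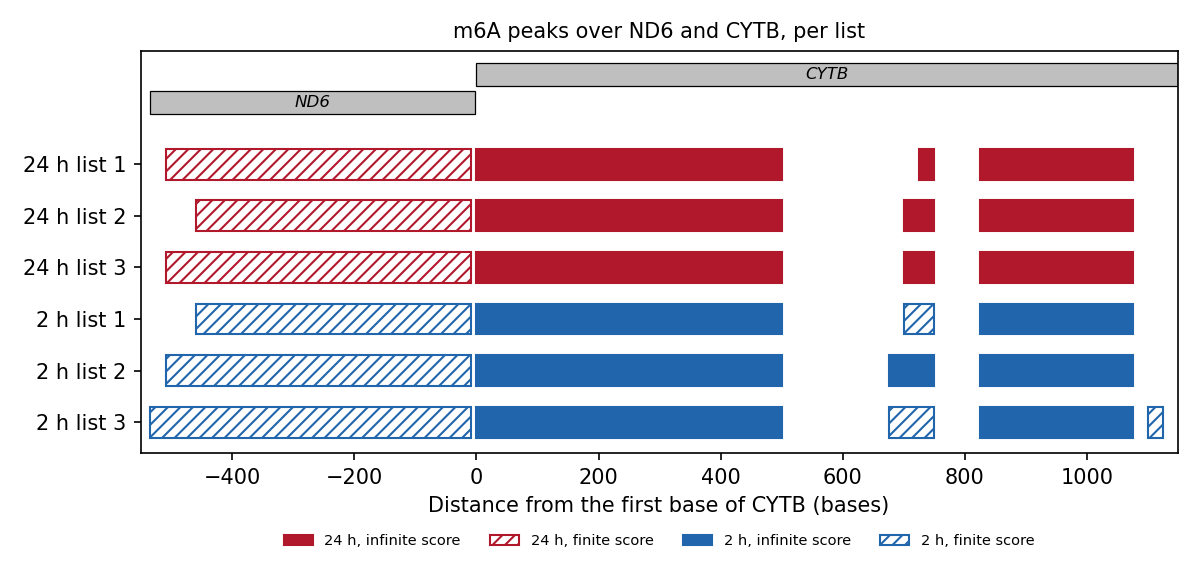
Peaks over the neighbouring *ND6* and over *CYTB* in each list, against the distance from the first base of *CYTB* in bases; grey boxes are the genes, filled bars have an infinite score and hatched bars a finite one (24 h red, 2 h blue). The 500-base block at the start and the 250-base block near the end have the same edges in all 6 lists, while the middle peak spans 25 to 75 bases.

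Along both longer genes the 5' part was fully under peaks and the gaps lay further on. *CYTB* was divided into 382 bases at the 5' end, 384 in the middle and 382 at the 3' end. The 5' section was covered to 100% in all 6 lists. The middle section was covered to 37.2%, 43.8% and 43.8% in the 24 h lists and to 43.8%, 50.3% and 50.3% in the 2 h lists. The 3' section was covered to 65.4% in all lists but the third 2 h list, where it was 72.0%. The 3' section minus the 5' section gave -33.5 ± 2.67 percentage points (SD, n = 6 lists), below 0 in each of the 6 lists. An exact sign-flip test, two-sided, gave p = 0.03125, or 0.0469 after adjustment over 3 within-list comparisons. That p is the smallest that 6 lists can give. Because the block edges were shared by all lists, it shows only that the same calls recurred. In *ATP6*, divided into sections of 226 bases, the 5' and middle sections were covered to 100% in all 6 lists, and the 3' section to 55.8%, 66.8% and 66.8% in the 24 h lists and to 66.8% in every 2 h list. Neither pattern is adjusted for read coverage along the RNA, since the input was not used.

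*ATP6* was covered further than *CYTB* in every list. The difference was 17.9 ± 1.74 percentage points (SD, n = 6), above 0 in 6 of 6 lists. The exact sign-flip test, two-sided, gave p = 0.03125 (0.0469 after the same adjustment). This is again the smallest p that 6 lists can give, and shows only that the same order recurred in every list. The difference was 5.67 percentage points when a peak had to have its midpoint, or at least 50% of its span, inside the gene. The peak shared with *COX3* then no longer counted for *ATP6*. *ATP8* has no peak of its own: under either of those rules it was covered to 0% in all lists, since the peak over it lies mostly in *ATP6*.

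With all 6 lists, the ranges of the 24 h and 2 h embryos met in each of the 3 genes. Every 24 h list was below every 2 h list in 15.4% of the 13 mitochondrial coding genes and in 0 of these 3, and no gene had every 24 h list above every 2 h list (0% of 13). *CYTB* was covered to 67.5%, 69.7% and 69.7% in the 24 h lists, and to 69.7%, 71.9% and 74.0% in the 2 h lists, so the groups met at 69.7%. Mean coverage was 69.0% ± 1.26 across the 24 h lists, against 71.9% ± 2.18 across the 2 h lists (SD, n = 3 for both), a difference of -2.90 percentage points (exact two-sided permutation p = 0.3, of which 0.1 is the smallest possible). Without the third 2 h list, the one with the extra peak, the difference was -1.81. Without the first 2 h list it was -3.99, and every 24 h list was then below both remaining 2 h lists (exact two-sided permutation p = 0.1, the smallest possible). The number of peaks over the 3 genes was 5 in each 24 h list, against 5, 5 and 6 in the 2 h lists (exact two-sided permutation p = 1). The mean score percentile of these peaks, counted as the share of a list's peaks at or below the score, was 100 in each 24 h list, against 99.4, 100 and 99.0 in the 2 h lists (exact two-sided permutation p = 0.4). Infinite scores count as 100, so the 24 h lists sit at the ceiling and the contrast rests on the few finite *CYTB* peaks at 2 h. The difference of 0.528 became 0.792 without the second 2 h list (exact two-sided permutation p = 0.1, the smallest possible) and 0.279 without the third.

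**Figure D2:**
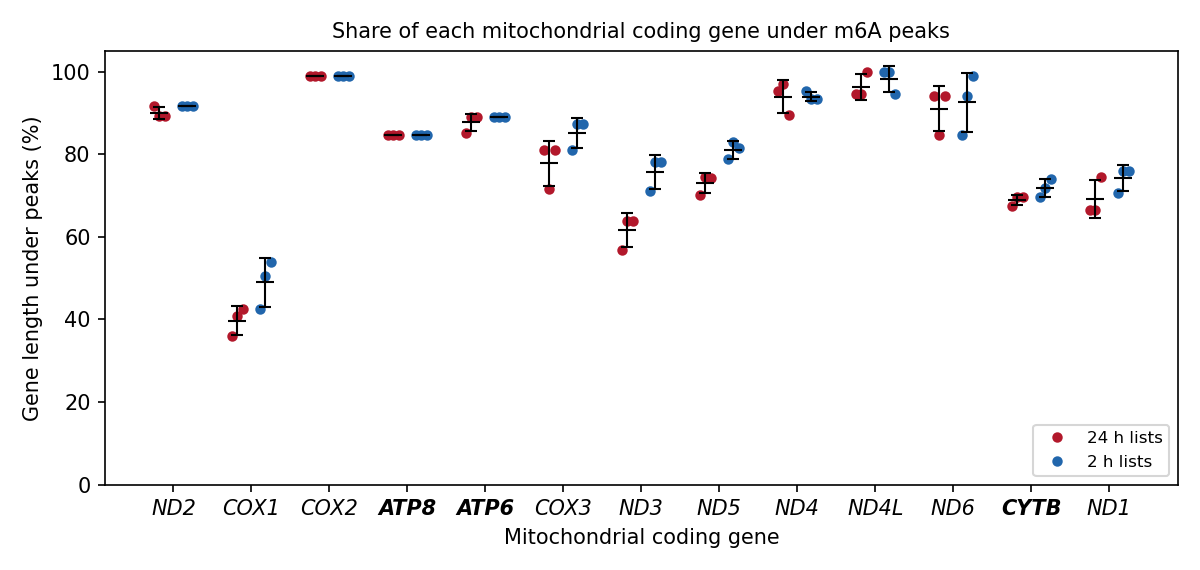
Share of each mitochondrial coding gene under peaks, in percent, in genome order; points are lists (24 h red, left; 2 h blue, right), and the black bars are mean ± SD of 3 lists. *ATP8* stands at 84.6% in all 6 lists, *ATP6* between 85.3% and 88.9% and *CYTB* between 67.5% and 74.0%.

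Most of the length of these genes gave the same call in all 6 lists. Cut into 25-base steps, *ATP8*, *ATP6* and *CYTB* together hold 79 steps, of which 59 were under a peak in all 6 lists, 16 in none, and 4 in some. Those 4 steps (5.06%) compare with 55 of 374 (14.7%) in the other 10 coding genes, where the share ran from 0% in *COX2* to 26.7% in *ND3*, a complex I gene. All 6 *ATP8* steps had the same call in all 6 lists, and *ATP6* had 1 variable step of 27 and *CYTB* 3 of 46. Each of the 4 variable steps was called in more 2 h than 24 h lists, as were 45 of the 55 in the other genes. No step of the 3 genes was called in all 3 lists of one time and none of the other. Among all 453 steps of the 13 genes, 1.1% were called in every 2 h list and no 24 h list, and 0% the reverse. Steps next to each other are called together, so these counts are a description with no test.

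The peaks that touch the 3 genes had 16 different start or end positions, of which 7 (43.8%) occurred in all 6 lists and 9 did not. The remaining mitochondrial peaks had 100 such positions, 21 of them in all 6 lists. The shared length of 2 lists divided by their joint length, over the 3 genes, averaged 0.978 for pairs of 24 h lists, 0.979 for pairs of 2 h lists and 0.974 for pairs of one list from each time. Over the other 10 genes the same averages were 0.927, 0.936 and 0.910.

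**Figure D3:**
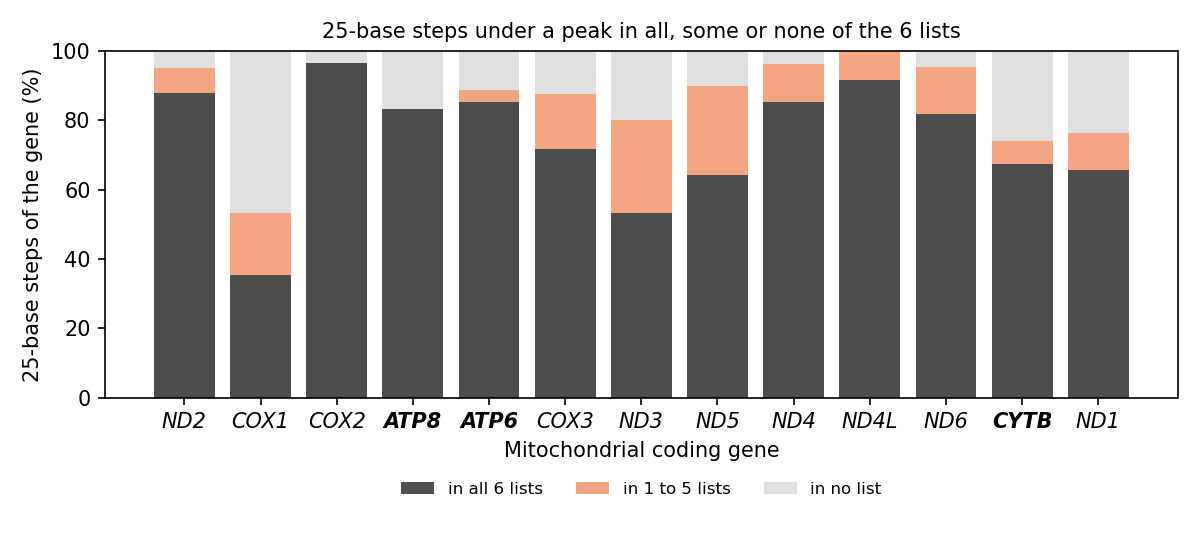
Percent of the 25-base steps of each mitochondrial coding gene under a peak in all 6 lists (dark), in 1 to 5 lists (orange) or in none (light grey). The variable share is 0% in *ATP8*, 3.70% in *ATP6* and 6.52% in *CYTB*.

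Of the 31 peaks on these genes, 28 (90.3%) had an infinite score, against 58 of 149 (38.9%) of the mitochondrial peaks that touch none of them and 1.23% of all peaks in the lists. A peak that recurred was counted once per list, so these are not counts of separate sites. High shares were not limited to these genes. All 32 peaks of *COX1*, another cytochrome c oxidase subunit gene, and all 6 of *COX2* were infinite, as were all 6 that touch *ATP8* and all 12 that touch *ATP6*. The 6 that touch *ATP8* are also among the 12 of *ATP6*, and the other 6 of *ATP6* lie mostly in *COX3*. *CYTB* had 16 of 19 (84.2%), and the other genes ran from 0% in *ND4L* and *ND6* to 62.5% in *ND4*, all 3 of which encode complex I subunits. The share over the 3 genes was 100% in each 24 h list and 66.7% to 100% in the 2 h lists, and over the remaining mitochondrial peaks 37.5% to 40.9% at 24 h and 34.8% to 42.3% at 2 h. The peaks of the 3 genes were also longer, with a median span per list of 312.5 to 375 bases, against 121 to 237.5 bases for the remaining mitochondrial peaks, and the part of span in the scores was not tested. These shares are a description with no test.

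The share under peaks over the 3 genes together was not separated from that over the rest of the mitochondrial coding length. Their joint coverage was 74.9%, 77.4% and 77.4% in the 24 h lists, and 77.4%, 78.6% and 79.9% in the 2 h lists. That of the other 10 genes was 74.8%, 75.4% and 76.8% in the 24 h lists, and 78.1%, 81.9% and 82.3% in the 2 h lists. The difference between these genes and the others averaged -0.625 ± 1.95 percentage points (SD, n = 6; exact sign-flip test, two-sided, p = 0.4375, the same after adjustment). It was above 0 in the 3 lists of 24 h and below 0 in the 3 lists of 2 h, in some lists by less than 1 step. It was 0.816 in the stronger 50% of each list, and -11.4 (exact two-sided sign-flip p = 0.03125, n = 6) when a peak needed its midpoint or at least 50% of its span inside a gene. Those rules leave *ATP8* without a peak and remove from *ATP6* the peak it shares with *COX3*.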

How the data were processed

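Per the labels' protocols, oligo(dT) beads were used to enrich messenger RNA, which was cut to fragments of about 100 nucleotides and split into an m6A capture and an input for Illumina sequencing. The submitters' processing notes name HISAT2 2.1.0, Bowtie2 2.2.5, HOMER and fastp 0.20.0 without roles. For the peak caller, threshold and genome build, nothing is given in the sources used here. Deposited lists, one per sample and not pooled, hold 6 columns, and the score column is the authors' own value per peak.

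Gene names and positions came from the mitochondrial rows of the RefSeq table of assembly GCF_023101765.2 (AGI-APGP_CSIRO_Sfru_2.0), whose build is not shown to be that of the lists; the match of all 180 mitochondrial peaks to 25-base steps of its coding stretches is the check of fit. Base positions are those of the lists, counted from 1. A gene's strand was that of its peaks. Covered share is the percent of a gene's bases under same-strand peaks. Times were compared with exact permutation tests of 3 lists against 3 (smallest p 0.1), and values within a list with exact sign-flip tests over 6 lists, with Benjamini-Hochberg adjustment over 3. The functions were tested on simulated data. The genes described were the 3 chosen ones and the neighbours *COX2*, *COX3* and *ND6*; *COX1*, *ND3*, *ND4* and *ND4L* were named after their values were seen. Genes, tests and alternatives were chosen with earlier results of these data known. The alternatives were the stronger 50% of each list, equal list length, a peak midpoint or at least 50% of the peak inside the gene, strand ignored, each list left out and a replicate block. Python 3.11.15, numpy 2.4.6, pandas 2.3.3 and matplotlib 3.10.9 were used.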

Additional observations from a re-analysis of the deposited data

Results flagged for a closer look

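The coverage of *ATP8*, *ATP6* and *CYTB* relative to the other 10 mitochondrial coding genes had opposite signs at the 2 times: it was above the others in all 3 lists of 24 h (mean 0.879 percentage points) and below them in all 3 lists of 2 h (mean -2.13). The difference of 3.01 percentage points between the times had an exact two-sided permutation p of 0.1, the smallest that 3 lists against 3 can give. The contrast was flagged because its values differed between the times. P-values from those same values are therefore a description and no independent evidence. The signs depend on counting the shared peaks: with a peak midpoint or at least 50% of the peak inside the gene all 6 lists were below 0 (means -9.87 at 24 h and -12.9 at 2 h), and in the stronger 50% of each list 1 of the 2 h lists was above 0. The difference between the times was 3.01 and 2.99 percentage points under these settings (exact two-sided permutation p = 0.1). The values for the single lists of 24 h were 0.0539, 2.03 and 0.547, and those of 2 h were -0.734, -3.27 and -2.38. A change of 1 step moves the joint coverage of the 3 genes from 77.4% to 78.6%. The values 0.0539, 0.547 and -0.734 are smaller than that, so their signs are below the resolution of the lists. Coverage of the 3 genes was 74.9% to 77.4% at 24 h and 77.4% to 79.9% at 2 h. That of the other 10 genes was 74.8% to 76.8% at 24 h and 78.1% to 82.3% at 2 h.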

How the results depend on the processing

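Of 93 values recomputed under the alternatives, 76 kept their direction and their side of the 0.05 threshold. For the time comparisons only the direction could change, since their smallest p is 0.1, or 0.25 with the replicate block. Ignoring strand could change nothing, because no coding gene had peaks on both strands. The *ATP8* difference was 0 in every setting. This count is therefore no measure of robustness. The difference between the 3 genes and the other 10 in covered share, -0.625, turned to 0.816 in the stronger 50% of each list, and was -11.4 both with a peak midpoint and with at least 50% of the peak inside the gene, rules under which *ATP8* has no peak. With 1 list left out, the smallest sign-flip p is 0.0625, so that the difference between *ATP6* and *CYTB* (17.6 to 18.5) and that between the 3' and 5' sections of *CYTB* (-34.6 to -33.2) no longer passed. Leaving out 1 list gave 24 h minus 2 h differences of -1.84 to 0 for *ATP6*, -3.99 to -1.81 for *CYTB* and -0.5 to 0 for the number of peaks. For the mean score percentile the differences were 0.279 to 0.792. Same-numbered lists were not shown to be pairs: the correlation of their deviations over 114500 merged regions was 0.0066, 0.0013 and 0.0077, though each list correlated best with its own number. With the replicate block the difference for *CYTB* was -2.90 (exact two-sided sign-flip p = 0.25, n = 3 pairs). That p is the smallest that 3 pairs can give, so no call could pass 0.05 there. Edges are known to 25 bases, so differences of 1 step are at the limit of the lists.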
